A study of Mus musculus with 79 samples.

Results

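Microglia are the resident macrophages of the brain, and 36 genes that mark them or other myeloid cells were followed through 79 RNA libraries, each made from nuclei sorted out of adult mouse visual cortex. The genes were chosen by name, with earlier results of these data known, from the 55335 rows of the count table. They fall into 3 groups by role. The 12 identity genes encode homeostatic surface receptors and transporters and 1 lineage transcription factor. The 11 complement and lysosome genes encode the C1q chains, phagocytic receptors and adaptors, and lysosomal proteins. The 13 genes called signalling genes here encode kinases, phosphatases, exchange factors, adaptors and transcription factors that myeloid cells share with other white blood cells, together with the receptor Cd84, thromboxane A synthase (Tbxas1) and Lrmda. Together they held 0.0592% of all counts.

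All mice carried INTACT wt/ki together with VIP Cre wt/ki: Cre recombinase expressed with vasoactive intestinal peptide (VIP), a marker of a class of cortical inhibitory interneuron, and the INTACT allele, which tags nuclei of cells with Cre. Every library was labelled as 10 days dark housed. The vectors were the adeno-associated viruses (AAV) AAV-Syn1-Kir2.1-2a-mScarlet-KASH and the same construct with Kir2.1(Mutant). Syn1 is a neuronal promoter, Kir2.1 is a potassium channel whose inward rectification keeps neurons near rest, and mScarlet-KASH is a red protein held at the nuclear envelope. Per the labels' protocols, injection into the visual cortex was at postnatal day 55 to 60 and the dark period began 3 days later. With Kir2.1 there were 10 libraries each of all non-transduced nuclei, non-transduced VIP nuclei and transduced VIP nuclei, and 8 of transduced neurons. The mutant channel had 9, 9, 9 and 8. Uninjected mice were the source of 3 libraries of all nuclei and 3 of VIP nuclei, all from males, whereas both injected groups held both sexes. The series asked what neuronal activity that remains in the dark does, by silencing cortex with Kir2.1. The labels describe no sham injection, so the vector, the operation and the sorting out of transduced nuclei cannot be told apart in any difference between injected and uninjected cortex.

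Microglia depend on signals through the colony-stimulating factor receptor Csf1r and survey the tissue with purinergic receptors such as P2ry12. Debris and tagged synapses are recognised by complement C1q and by Trem2, whose adaptor Tyrobp passes the signal to the kinase Syk, while the lipid phosphatase Inpp5d restrains it. Exchange factors such as Dock2 and Dock8 then act on small GTPases that move the cell. Many microglial genes are controlled by PU.1, a transcription factor that binds a core written GAGGAAGT. Loss of homeostatic gene expression together with a rise of other genes is known from microglia near injury.

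The core or its reverse complement ACTTCCTC lay in the promoter, from 250 bases before to 50 bases after the RefSeq start, of 6 of the 30 members with a promoter in the RefSeq table of GRCm38.p6 (20%). Over all genes of that table the share was 3.69%. The 6 were Inpp5d, C1qc, Sh3bp2, Apbb1ip, Ctss and Slco2b1, that is 3 signalling genes, 2 complement and lysosome genes and 1 identity gene. The stretches of 3 of them upstream of the start are shown because they carry the core in genes of contrasting behaviour here: Inpp5d and C1qc did not pass the main test and Sh3bp2 did. Capitals mark the core as it reads on the strand of the gene.
Inpp5d, chr1:87620252-87620311, + strand: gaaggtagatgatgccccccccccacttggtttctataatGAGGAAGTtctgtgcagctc
C1qc, chr4:136893076-136893135, - strand: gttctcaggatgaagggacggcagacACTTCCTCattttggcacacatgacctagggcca
Sh3bp2, chr5:34549372-34549431, + strand: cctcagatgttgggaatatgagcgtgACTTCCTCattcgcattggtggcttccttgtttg
The core lay 20 bases before the start in Inpp5d, 195 in C1qc and 178 in Sh3bp2. The C1qc and Sh3bp2 starts are RefSeq starts inside the annotated spans of these genes. A match is a description of the sequence and not a measured binding site.

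Total counts ran from 3219899 to 9267246 per library, each from 50 to 100 nuclei, and levels of the members scattered widely between libraries of 1 group. Levels below are CPM, that is counts relative to the library's total after trimmed-mean scaling over all 79 libraries. The sorts went with their labels: summed VIP neuron markers were 6348 to 9023 CPM in the 3 VIP libraries without AAV and 5.72 to 76.8 CPM in the 3 of all nuclei. The titles number biological replicates but tie none to an animal, and p-values refer only to the spread among libraries.

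The counts include introns and overlapping genes, which decides how some members can be read. Among 3752 pairs in which 1 gene lies wholly inside another, the inner gene never had more counts than the outer one in any library in 3750 pairs, on either strand alike. Reads were thus counted over the whole span of a gene, for every gene they fell in and without regard to strand. Genes nested in Dock2 held 64.2% of its counts over the 79 libraries, almost all in Fam196b. The shares were 39.1% for Fyb (Gm2245), 27.8% for Cx3cr1, 27.0% for Tbxas1 and 21.4% for Slco2b1. P2ry12 and P2ry13 lie inside the neuronally expressed Med12l, Gpr34 lies inside Cask, and Itgam could not be separated from the annotated copy Gm49368. Other members overlap a gene that is not nested in them: Cx3cr1 with Wdr48, Csf1r with Hmgxb3, Tbxas1 with Hipk2 and Slco2b1 with Gm34280. In 26 members no overlapping gene had 10% or more of their counts.

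In all nuclei of uninjected cortex, the 3 libraries differed widely in the members. Summed over the 36 genes the levels were 1308, 603 and 175 CPM in replicates 1, 2 and 3. Identity genes made up 806, 368 and 149 CPM of this, and signalling genes 134, 83.6 and 17.5 CPM. Replicate 3 held the lowest total of each. Its 175 CPM over the 36 genes was no higher than in neuronal sorts. These had 165 to 235 CPM in neurons transduced with Kir2.1 and 190 to 301 CPM in VIP nuclei without AAV. In injected cortex the 36 genes summed to 1027 to 2328 CPM with Kir2.1 (median 1442) and 986 to 2306 CPM in the mutant group (median 1323), so replicate 1 lay within the injected range and replicates 2 and 3 below it. In bulk libraries, fewer cells of a type and less RNA per cell cannot be told apart.

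The 3 groups of members differed in how the uninjected libraries compared with the injected ones. Signalling genes held 10.2%, 13.9% and 10.0% of the members' summed level without AAV and 18.2% to 55.04% in the 19 injected libraries. Per unit of identity gene the signalling level was 0.166, 0.227 and 0.117 without AAV and 0.331 to 1.74 with it. Neither sum is purely microglial. Identity genes also summed to 82.9 to 135 CPM in neurons transduced with Kir2.1 and 152 to 209 CPM in VIP nuclei without AAV. Uninjected replicate 3, at 149 CPM, lay between these ranges. Signalling sums include reads nested in Dock2 and Fyb. The ratio is therefore not a level per microglial cell. The shares and ratios with and without AAV did not overlap, although identity sums did. Replicate 1 without AAV, at 806 CPM, exceeded the medians of 582 CPM for Kir2.1 and 529 CPM for the mutant.

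**Figure D1:**
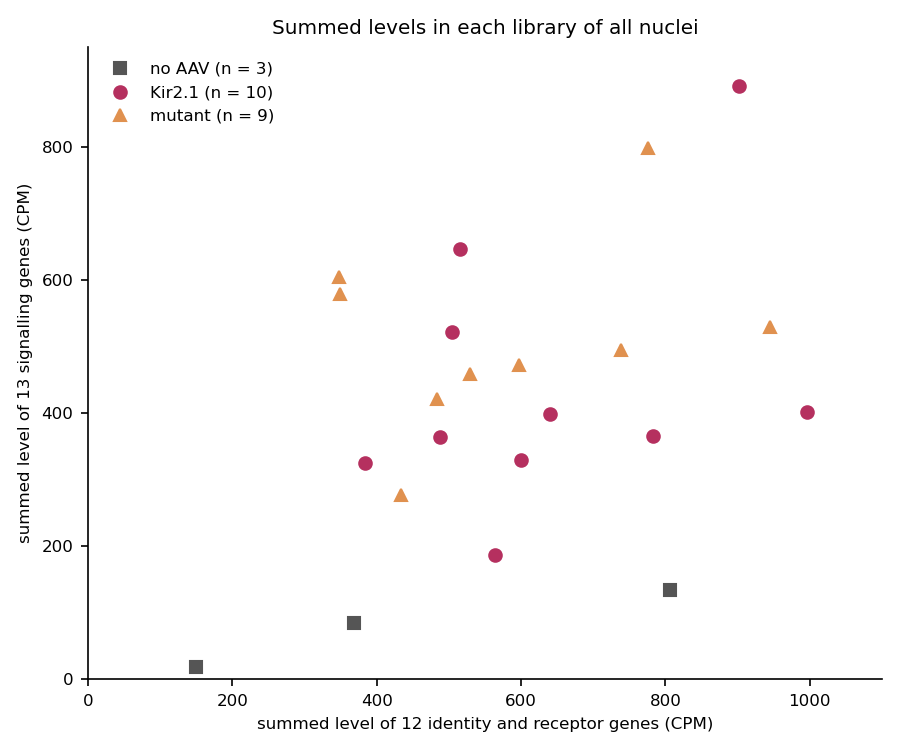
Summed level of the 12 identity genes (horizontal axis, CPM) against that of the 13 signalling genes (vertical axis, CPM), 1 point for each of the 22 libraries of all nuclei, by vector. The 3 uninjected libraries lie at 134 CPM of signalling genes or below, under every injected library, while their identity sums run from 149 to 806 CPM.

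Against uninjected cortex, 8 members rose in all non-transduced nuclei of injected cortex, 0 fell and 28 did not pass (19 against 3 libraries). The 8 were 7 of 13 signalling genes, 1 of 11 complement and lysosome genes and 0 of 12 identity genes. Since the genes were chosen with earlier results of these data known, the contrast between groups is a description and not an independent test. Of all 21362 genes tested, 42 rose, that is 0.197%, and 0.0140% fell (0.211% in either direction). The median log2 fold change was 2.89 for signalling genes, 0.91 for complement and lysosome genes and 0.48 for identity genes, against 0.09 for all genes tested. At an unadjusted p under 0.05 there were 12, 4 and 2 genes of the 3 groups, and 2289 of all genes. Sh3bp2, with 0 counts without AAV, entered the test through the injected libraries alone. So did Syk and Aif1, with 1 and 2 uninjected counts, and Tbxas1, with 16 uninjected counts and at most 1.21 CPM. Dock2, Dock8 and Fyb, at 0, 0 and 0.867 CPM in uninjected replicate 3, also entered through the injected libraries. Without Sh3bp2, Syk and Aif1, whose uninjected libraries held 3 counts or fewer, 5 of 11 signalling genes passed with a median of 2.67. Tbxas1, Dock2, Dock8 and Fyb are among these 5, beside Lrmda. Of complement and lysosome genes 1 of 10 then passed, with a median of 0.90. DESeq2 called 11 signalling genes, 3 complement and lysosome genes and 1 identity gene higher, with 353 of all genes in place of 42. In the 26 members without a large overlap, 4 of 10 signalling genes, 1 of 10 complement and lysosome genes and 0 of 6 identity genes passed, with medians of 2.41, 0.90 and 0.64.

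**Figure D2:**
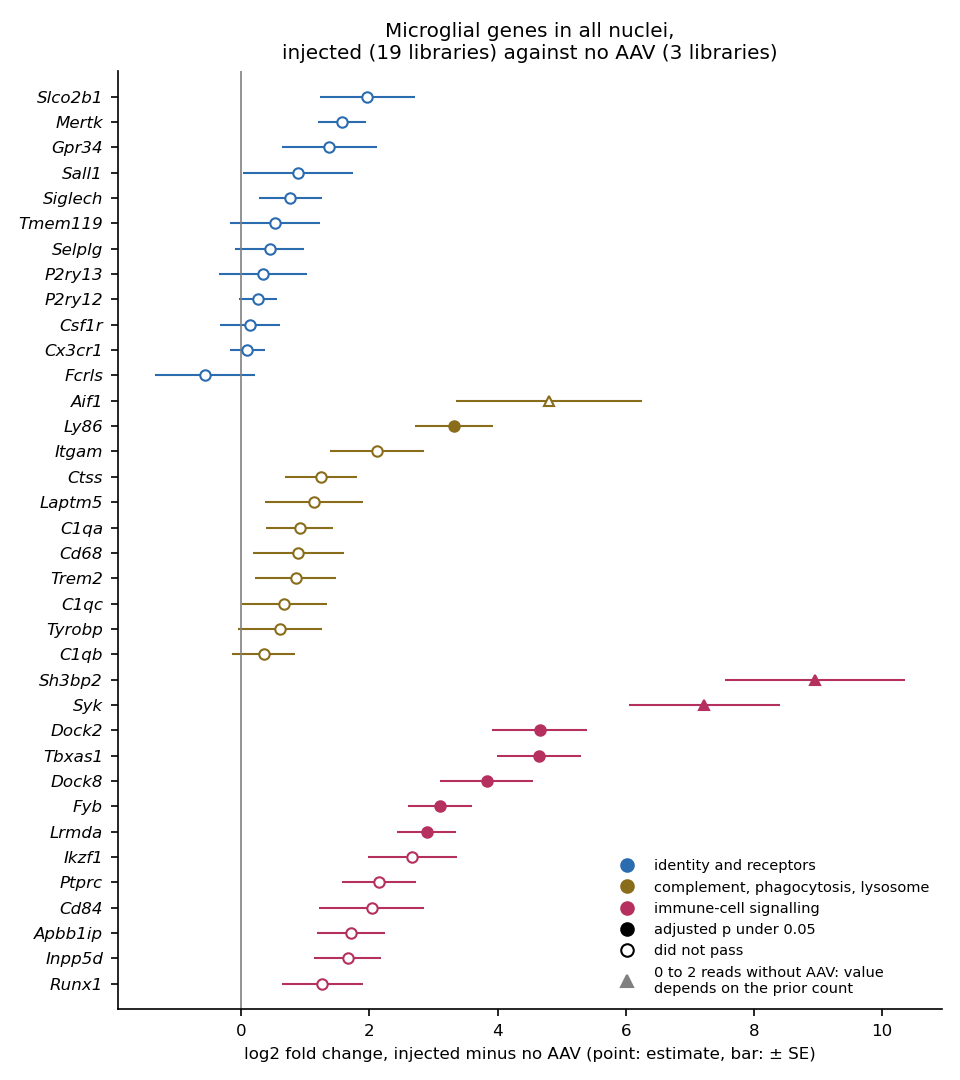
Log2 fold change of each of the 36 members in all nuclei, injected against no AAV, with its standard error as a bar, grouped by role; filled symbols passed the test. Signalling genes sit furthest to the right with a median of 2.89, and triangles mark Sh3bp2, Syk and Aif1, whose fitted values depend on the prior count because uninjected libraries held 0 to 2 reads.

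Among identity genes, Csf1r had levels of 256, 53.1 and 12.0 CPM in the uninjected libraries and 39.9 to 198 CPM in the injected ones (median 103). The uninjected values lay above, within and below the injected range. The log2 fold change was 0.14 ± 0.46 (SE; adjusted p = 0.959). Cx3cr1, the receptor for the neuronal chemokine fractalkine, had 121, 97.8 and 58.3 CPM without AAV and 43.9 to 146 CPM with it, a difference of 0.09 ± 0.27 (adjusted p = 0.951). With the reads of its 6 nested genes subtracted the difference was 0.00 ± 0.29. Wdr48, which overlaps Cx3cr1 without being nested, was not subtracted. In the uninjected libraries Wdr48 had 18.85, 51.8 and 57.0 CPM, and its difference was -0.25 ± 0.30 (adjusted p = 0.843). The part of Wdr48 in the Cx3cr1 level was not tested. P2ry12, an ADP receptor of resting microglia, had 102, 67.4 and 31.4 CPM against 38.3 to 121 CPM, a difference of 0.27 ± 0.30 (adjusted p = 0.818).

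Because P2ry12 lies inside Med12l, its level was also set beside that of the rest of Med12l per kilobase of span. In all nuclei P2ry12 had 1.88 ± 0.38 CPM per kilobase with Kir2.1 (n = 10) and 1.62 ± 0.64 in the mutant group (n = 9), where the rest of Med12l had 0.607 ± 0.153 and 0.656 ± 0.111. Without AAV it had 2.19, 1.45 and 0.673 CPM per kilobase against 0.486, 0.597 and 0.586 for Med12l. P2ry12 was thus above its host in all 22 libraries of all nuclei, by little in replicate 3 without AAV. Gpr34, a lysophosphatidylserine receptor, had 2.48, 0.326 and 0 CPM per kilobase without AAV, and only replicate 1 exceeded the rest of Cask. With Kir2.1 and the mutant it had 2.78 ± 1.46 and 2.20 ± 1.38, above Cask in 10 of 10 and 8 of 9 libraries. Its log2 fold change was 1.37 and did not pass (adjusted p = 0.494).

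The other identity genes gave no call in edgeR either. Slco2b1, an organic anion transporter, had the largest fold change of the 12, 1.97 ± 0.74 (adjusted p = 0.362), and 1.67 ± 0.76 with nested reads subtracted. Its levels were 9.65, 9.54 and 0 CPM without AAV and 6.76 to 60.2 CPM with it, above the highest uninjected library in 17 of 19. P2ry13, another ADP receptor, had 18.4, 7.47 and 3.64 CPM against 0.882 to 40.4 CPM (0.34 ± 0.69), and Selplg, a selectin ligand, 75.5, 8.27 and 8.67 CPM against 9.38 to 99.2 CPM (0.44 ± 0.54). Sall1 stood at 0.88 ± 0.86. Tmem119, a surface protein used to tell microglia from other macrophages, had 41.9, 6.84 and 0 CPM without AAV and 6.96 to 83.7 CPM with it (log2 fold change 0.52, adjusted p = 0.866). Siglech, a sialic acid-binding lectin, had 74.0, 61.2 and 4.85 CPM against 27.4 to 241 CPM (0.76 ± 0.49, adjusted p = 0.593). Fcrls was the only member with a negative value, -0.57 ± 0.78 (adjusted p = 0.868), from 64.4, 21.8 and 0 CPM against 0.169 to 53.5 CPM. The phagocytic receptor Mertk, which binds dying cells through bridging proteins, came nearest to the threshold. It had 21.4, 19.1 and 28.8 CPM without AAV and 26.5 to 156 CPM with it, above the highest uninjected library in 18 of 19, a log2 fold change of 1.57 ± 0.38 (adjusted p = 0.0731). It passed with DESeq2 (adjusted p = 0.00134), with no filter on low counts (adjusted p = 0.0211), with the replicate number as a block (adjusted p = 0.00785) and without Kir2.1 replicate 5 (adjusted p = 0.042), and stood at an adjusted p of 0.427 without uninjected replicate 2. Astrocytes also express Mertk; astrocyte markers gave 0 calls among 10, with summed levels of 456 to 527 CPM without AAV, 346 to 691 CPM with Kir2.1 and 390 to 827 CPM in the mutant group.

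In 10 of 11 complement and lysosome genes the injected and uninjected libraries overlapped. C1qa, a chain of the complement recognition molecule, had 34.5, 25.4 and 1.73 CPM without AAV and 10.8 to 78.3 CPM with it (0.91 ± 0.52, adjusted p = 0.511). C1qb had 67.2, 39.9 and 2.601 CPM against 11.8 to 89.9 CPM (0.35, adjusted p = 0.873). The lysosomal protease Ctss had 122, 44.5 and 1.73 CPM against 48.9 to 269 CPM (1.24 ± 0.56, adjusted p = 0.449). For these 3 genes replicates 1 and 2 without AAV lay inside or close to the injected range and replicate 3 lay below it. C1qc, with 21.9, 8.27 and 0 CPM without AAV and 4.32 to 44.7 CPM with it, had the same order of replicates (0.67 ± 0.66). Trem2 (0.85), Tyrobp (0.60), Cd68 (0.89) and Laptm5 (1.13) likewise did not pass. The integrin chain Itgam had 8.29, 0.318 and 0.347 CPM against 2.43 to 27.2 CPM (2.12 ± 0.73, adjusted p = 0.326). DESeq2 called it (adjusted p = 0.0401), and edgeR did without uninjected replicate 1 (adjusted p = 0.00326).

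Ly86 was the exception. Encoding the partner of a Toll-like receptor homologue, it had 10.3, 3.66 and 1.56 CPM without AAV and 12.2 to 126 CPM with it (median 46.0). All 19 injected libraries lay above all 3 uninjected ones. The log2 fold change was 3.31 ± 0.61 (adjusted p = 0.00575), and 4.30 without uninjected replicate 1. Without replicate 2 or 3 the fold change was similar, 3.11 and 2.89, and no longer passed (adjusted p = 0.107 and 0.0776). Aif1, the cytoskeletal protein Iba1 used to stain microglia, had 2 counts in the 3 uninjected libraries and 428 in the injected ones. The ratio per library size was 31.9 (exact 95% interval 8.78 to 264.3, counting error only) and the edgeR test did not pass (adjusted p = 0.246; 0.0157 by DESeq2).

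Among signalling genes, Tbxas1 (chr6:38875404-39084585, GRCm38), thromboxane A synthase, had 1.21, 0.477 and 0.867 CPM without AAV. In injected cortex it had 5.24 to 62.2 CPM (median 19.7), and no value overlapped. The log2 fold change was 4.65 ± 0.65 (adjusted p = 0.000306). With the reads of its nested genes subtracted it was 4.92 ± 0.73 (adjusted p = 0.000584).

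Dock2 (chr11:34226815-34783892), a Rac exchange factor of blood cells, had 0.603, 5.24 and 0 CPM without AAV and 14.9 to 116 CPM with it. The difference of 4.65 ± 0.74 (adjusted p = 0.00107) includes reads in Fam196b, which rose as well (4.52 ± 1.00, adjusted p = 0.0418). Outside the nested genes Dock2 had 1.26 ± 1.69 CPM without AAV (SD, n = 3), 29.7 ± 19.2 with Kir2.1 (n = 10) and 34.9 ± 14.0 in the mutant group (n = 9). The log2 fold change of that remainder was 4.63 ± 0.75 (adjusted p = 0.00129). Leaving out 1 library at a time, Dock2 as counted ran from 4.09 to 7.201, the highest without uninjected replicate 2.

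Dock8, an exchange factor for Cdc42, had 4.52, 0.795 and 0 CPM without AAV and 3.36 to 42.5 CPM with it, higher than every uninjected library in 18 of 19. Its log2 fold change was 3.83 ± 0.72 (adjusted p = 0.00808), and 5.93 without uninjected replicate 1. Without replicate 2 or 3 it was 3.47 and 3.26 and did not pass (adjusted p = 0.134 and 0.0559). Lrmda (chr14:22019712-23056085), first known from melanocyte differentiation, had 25.3, 14.3 and 9.88 CPM against 40.2 to 266 CPM, with no overlap (2.89 ± 0.47, adjusted p = 0.00112). Fyb, an adaptor that links immune receptors to integrins, had 5.88, 8.11 and 0.867 CPM against 15.4 to 82.5 CPM, again with no overlap (3.10 ± 0.50, adjusted p = 0.00112). Its nested gene Gm2245 rose by a similar 3.40 ± 0.63 (adjusted p = 0.00578). Without the reads of that gene Fyb stood at 2.93 ± 0.67 and missed the threshold (adjusted p = 0.054).

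The kinase Syk and its binding partner Sh3bp2 were nearly absent from the uninjected libraries. Syk had 1 count in all 3 and 1422 counts in the 19 injected libraries, where it ranged from 2.26 to 31.2 CPM. The ratio was 212 (exact 95% interval 38.0 to 8379; adjusted p = 0.00123). Sh3bp2 (chr5:34525838-34563641) had 0 counts without AAV and 1190 with it, at 0.401 to 21.5 CPM. Against a floor of 3 counts over the uninjected group it was at least 59.1-fold higher (adjusted p = 0.00107). In males alone it missed the threshold (adjusted p = 0.054).

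The other 6 signalling genes had positive fold changes and did not pass in edgeR. DESeq2 called 4 of them, Ptprc (adjusted p = 0.00397), Ikzf1 (adjusted p = 0.000757), Inpp5d (adjusted p = 0.0271) and Apbb1ip (adjusted p = 0.0297). Ptprc, the leukocyte phosphatase CD45, had 9.20, 6.36 and 0.520 CPM without AAV and 9.44 to 46.9 CPM with it, with no overlap but a narrow gap (2.15 ± 0.58, adjusted p = 0.162). Ikzf1, a blood lineage transcription factor, had 7.69, 5.72 and 0 CPM against 4.08 to 66.8 CPM (2.67 ± 0.69, adjusted p = 0.126). Inpp5d had 32.1, 21.1 and 2.95 CPM against 12.5 to 133 CPM (1.66 ± 0.52, adjusted p = 0.265). Apbb1ip, an integrin-activating adaptor, stood at 1.71, the transcription factor Runx1 at 1.27 and the receptor Cd84 at 2.03 ± 0.82. Cd84 had 13.9, 0 and 0 CPM without AAV, and without replicate 1 it passed (adjusted p = 0.000186).

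In 8 members every injected library exceeded every uninjected one: Ly86, Dock2, Syk, Fyb, Lrmda, Tbxas1, Sh3bp2 and Ptprc. Over all 21362 genes this held for 66, that is 0.309%. The result rested on 3 uninjected libraries. Leaving out replicate 1 gave 11 members higher among 57 of all genes, with Cd84, Itgam and Laptm5 added, and group medians of 1.40, 2.53 and 3.35 for identity, complement and lysosome, and signalling genes. Leaving out replicate 3, the library with the lowest levels, gave 6 members higher among 29 of all genes and medians of -0.03, 0.37 and 2.61. Without replicate 2 there were also 6, among 23. Dock2, Fyb, Lrmda, Sh3bp2, Syk and Tbxas1 passed in each of these 3 fits, and all 13 signalling genes had positive values. In males only (8 injected libraries), 7 members rose among 37 of all genes.

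The members that rose have long gene spans, from 37804 bases in Sh3bp2 to 1036374 in Lrmda. Over all genes the median log2 fold change in this comparison went from -0.02 at spans up to 10 kilobases to 0.26 over 300 kilobases. Of the members, 0 of 10 with spans up to 10 kilobases and 0 of 6 from 10 to 30 kilobases passed, against 3 of 9 from 30 to 100, 3 of 9 from 100 to 300 and 2 of 2 above. In the same order, 0.118%, 0.102%, 0.253%, 0.484% and 0.671% of all genes tested rose, so calls over all genes also became more frequent with span. Among members of 100 to 300 kilobases, the 7 signalling genes had a median of 2.15 and the other 2, Mertk and Cx3cr1, one of 0.83. In uninjected cortex C1qa had the highest level per kilobase of span, 7.12 CPM, and Tbxas1 one of the lowest, 0.00406 CPM. The part of span, or of signal strength, in the result was not tested.

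Each vector was also set against the same 3 uninjected libraries, so these comparisons share their controls. With Kir2.1, 8 members rose and 0 fell, where 0.173% of all genes rose and 0.00468% fell (0.178% in either direction). In the mutant group 8 members rose and 0 fell, where 0.211% of all genes rose and 0.0140% fell (0.225% in either direction). Tbxas1 stood at 4.77 ± 0.67 with Kir2.1 and 4.52 ± 0.66 in the mutant group, Lrmda at 2.64 ± 0.47 and 3.14 ± 0.49, and Ly86 at 3.30 ± 0.62 and 3.33 ± 0.62. Without uninjected replicate 2 or 3, 5 members rose with Kir2.1, Dock2, Syk, Fyb, Tbxas1 and Sh3bp2. Identity medians were 0.67 and 0.39, and signalling medians 2.64 and 3.14.

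Compared directly in all nuclei, Kir2.1 and the mutant did not separate any member. By edgeR there were 0 calls among 36 members and 0.00% of all 21362 genes, with 1 member, Cd68, at an unadjusted p under 0.05. DESeq2 also called 0 members. Cd68, a lysosomal membrane protein, had 8.82 to 37.5 CPM with Kir2.1 (median 16.1) and 2.53 to 20.3 CPM in the mutant group (median 5.48), a difference of 1.05 ± 0.50 (adjusted p = 0.809). Csf1r differed by -0.02 ± 0.34, Dock2 by -0.16 ± 0.37 and Lrmda by -0.50 ± 0.27. A p above the threshold does not show that the vectors acted alike.

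Nuclei of VIP neurons carried little of most members, and the contrast served to check the list against a neuronal sort. With the 3 vector groups averaged, 30 of 36 members fell in non-transduced VIP nuclei relative to all nuclei, 1 rose and 5 did not pass (16.7% of 22855 genes fell and 10.7% rose). Csf1r was lower by 3.97 ± 0.37 on the log2 scale (adjusted p = 1.26e-12), at 4.04, 3.66 and 6.91 CPM in the VIP libraries without AAV. Ikzf1 stood at -7.30 ± 0.68 and Runx1 at -7.11 ± 0.88. In the injected groups alone, Csf1r stood at -3.73 ± 0.27, Ikzf1 at -9.42 ± 0.50 and Runx1 at -6.31 ± 0.62, and Aif1 did not pass (-1.23 ± 0.64, adjusted p = 0.152).

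Sall1, a zinc-finger factor listed here for its role in microglial identity, was the member that rose in VIP nuclei. It had 59.4, 64.8 and 49.6 CPM in VIP nuclei without AAV and 0.905, 13.2 and 1.91 CPM in all nuclei, a log2 difference of 2.45 ± 0.36 (adjusted p = 3.27e-07). In transduced neurons it had 0.134 ± 0.378 CPM with Kir2.1 and 1.38 ± 2.25 in the mutant group (SD, n = 8 each). Its level in all nuclei therefore cannot be assigned to microglia by this list.

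The value of Dock2 depended on its nested gene and on the vector groups. As counted and averaged over the 3 groups, VIP against all nuclei stood at 0.42 ± 0.30 (adjusted p = 0.338). In the injected groups alone it was lower by 0.74 ± 0.24 in VIP nuclei (adjusted p = 0.0141), whereas without AAV the mean was 13.4 CPM in VIP nuclei and 1.95 CPM in all nuclei. Over the 3 groups with nested reads subtracted, Dock2 was lower by 4.76 ± 0.86 on the log2 scale in VIP nuclei (adjusted p = 1.73e-05). In the 3 VIP libraries without AAV, Dock2 and Fam196b had the same 16.36, 10.97 and 12.98 CPM, and 0 of the 224 counts of Dock2 lay outside the nested genes. In VIP nuclei with Kir2.1 the remainder was 1.44 ± 2.03 of 24.5 CPM, and in the mutant group 2.09 ± 4.12 of 36.7 CPM. Nested genes held from 92.8% to 100.0% of the counts of Dock2 in each group of VIP nuclei.

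Cx3cr1 and P2ry12 fell in VIP nuclei by 0.91 ± 0.16 and 0.96 ± 0.18 on the log2 scale, and Slco2b1, at -0.97 ± 0.53, did not pass (adjusted p = 0.183). Differences between genes were not tested. Nested genes held 41.7% of the Cx3cr1 counts in VIP nuclei without AAV and 11.1% in all nuclei without AAV, and after their subtraction Cx3cr1 was lower by 1.42 ± 0.21 (adjusted p = 4.9e-07). The remainder had a mean of 31.3 CPM in VIP nuclei without AAV. There the overlapping Wdr48, which was not subtracted, had a mean of 37.6 CPM. P2ry12 had 0.784, 0.446 and 1.24 CPM per kilobase in the VIP libraries without AAV, beside 0.446, 0.319 and 0.389 for the rest of Med12l. Gpr34 had 0.276, 0.019 and 0.923 CPM per kilobase, beside 0.445, 0.427 and 0.547 for the rest of Cask.

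In transduced neurons, compared with all non-transduced nuclei of injected cortex, 35 of 36 members fell, 0 rose and Aif1 did not pass (-1.61 ± 0.61, adjusted p = 0.0826), where 8.17% of all genes fell and 3.53% rose. The median log2 fold change was -4.14. Csf1r had 2.76 to 18.7 CPM with Kir2.1 and 0 to 10.3 CPM in the mutant group, against 39.9 to 198 CPM in all nuclei of injected cortex. As counted, Runx1 and Ikzf1 were furthest down, at -6.96 ± 0.47 and -7.03 ± 0.48. With nested reads subtracted Slco2b1 and Dock2 were lower still, at -7.93 ± 0.56 and -7.60 ± 0.46. P2ry12 fell by 0.85 ± 0.15 on the log2 scale, to 1.03 ± 0.29 and 0.919 ± 0.241 CPM per kilobase, beside the 0.726 ± 0.172 and 0.769 ± 0.198 of the rest of Med12l. Lrmda kept 6.10 to 16.4 CPM in neurons with Kir2.1 and 2.11 to 13.01 CPM in the mutant group.

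**Figure D3:**
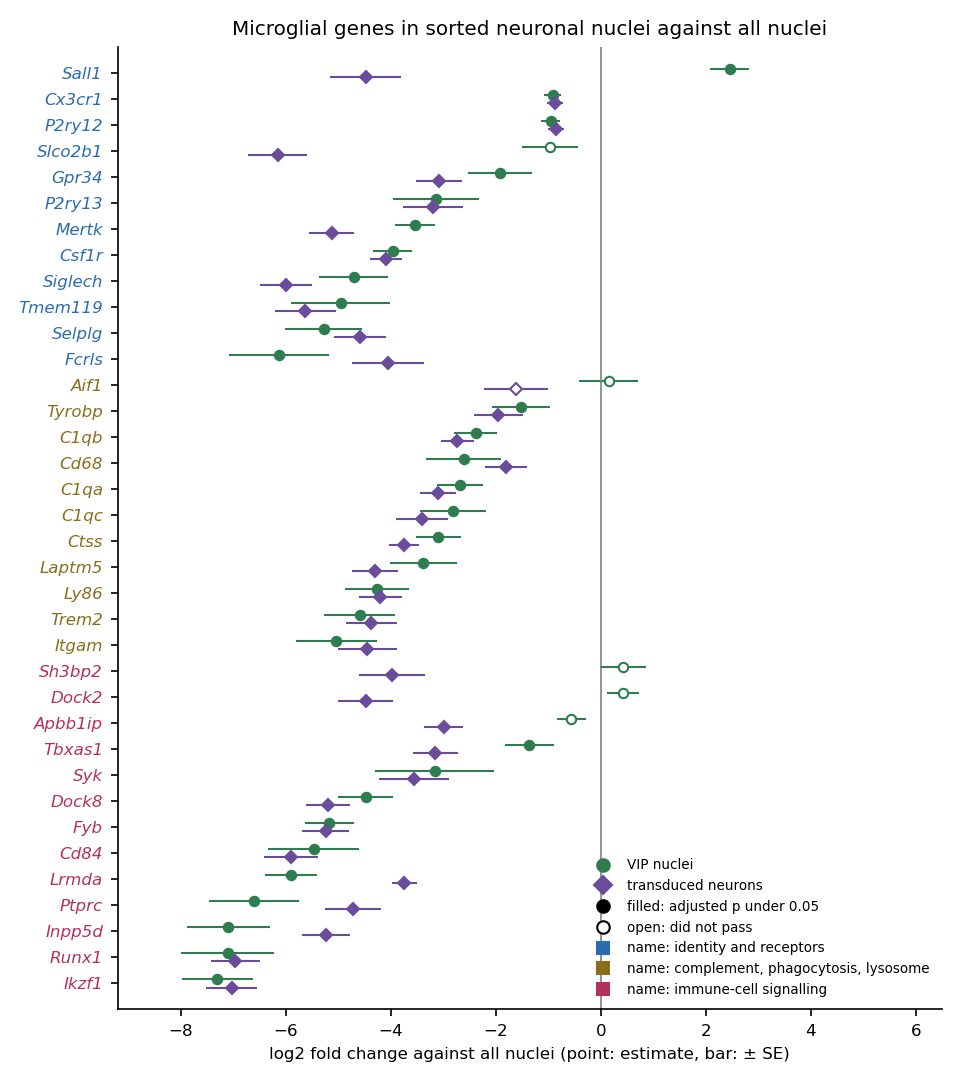
Log2 fold change of each member in non-transduced VIP nuclei and in transduced neurons, each against all nuclei, with standard errors. Nearly all points lie below 0, Sall1 lies at 2.45 in VIP nuclei and -4.48 in transduced neurons, and Dock2 at 0.42 and -4.48.

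Injection was also compared within VIP nuclei, where the same members were scarce. There were 0 calls among 33 members tested by edgeR or DESeq2 and 7 at an unadjusted p under 0.05 in edgeR, while 0.00943% of all 21207 genes passed. Syk, Runx1 and Ikzf1 did not reach the count filter. Summed signalling genes, which include the reads in Fam196b, were 30.7, 29.3 and 34.7 CPM without AAV, 35.7 to 69.4 CPM with Kir2.1 and 35.2 to 125 CPM in the mutant group. Ly86 had 0, 0.332 and 0.169 CPM without AAV and up to 13.9 CPM with Kir2.1 (4.06 ± 1.88, adjusted p = 0.504).

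Whether injection acted differently in all nuclei and in VIP nuclei was tested as an interaction. In edgeR it gave 0 calls among 36 members, with 11 at an unadjusted p under 0.05, and 0.0131% of all 22855 genes passed (0.00875% higher and 0.00438% lower). Ikzf1 came nearest (6.36 ± 1.32, adjusted p = 0.0947), then Dock8 (5.35 ± 1.179, adjusted p = 0.114) and Dock2 (3.51 ± 0.81, adjusted p = 0.173). DESeq2 called these 3 and Sh3bp2. In VIP nuclei without AAV Ikzf1 had 9 counts, with 2 of 3 libraries at 0, and Dock8 had 16. Ikzf1 was at 0 in all 10 non-transduced VIP libraries with Kir2.1. Sh3bp2 had 0 counts in all nuclei without AAV. The sizes of these values thus rest on few counts. For Dock2 the edgeR value turned to -1.85 ± 2.17 with nested reads subtracted. That value depends on the prior count, because the remainder of Dock2 had 0 counts in the 3 VIP libraries without AAV.

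In neuronal sorts the comparison of Kir2.1 and the mutant by edgeR gave 0 calls among the members. Of 33 tested in non-transduced VIP nuclei 1 had an unadjusted p under 0.05 (0.00% of all genes passed), of 33 in transduced VIP nuclei 3 (1.39% passed), and of 12 in transduced neurons 1 (5.63% passed, 2.18% higher and 3.45% lower). In transduced VIP nuclei Apbb1ip had 0 to 21.97 CPM with Kir2.1 and 5.90 to 32.9 CPM in the mutant group (-1.52 ± 0.51, adjusted p = 0.131). In transduced neurons Ly86 had 0.449 to 13.3 CPM with Kir2.1 and 0 to 3.61 CPM in the mutant group (2.33 ± 0.86, adjusted p = 0.121). DESeq2 called Ly86 there (adjusted p = 0.0453) and 0 members in the other 2 sorts.

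Other genes of the same pathways were read from wider lists for injected against uninjected all nuclei. Of 36 further genes of Fc, Toll-like and immune receptor signalling, 2 rose, 0 fell, 14 had an unadjusted p under 0.05 and the median was 1.25, where 0.197% of all genes rose, 2289 of 21362 had an unadjusted p under 0.05 and the median was 0.09. Blnk, an adaptor phosphorylated by Syk, had 0.905, 4.61 and 13.4 CPM without AAV, 22.7 to 41.9 with Kir2.1 and 27.2 to 81.5 in the mutant group (2.63 ± 0.48, adjusted p = 0.00575). It is not confined to myeloid nuclei here: its level was 36.1 ± 12.2 CPM in transduced neurons with Kir2.1 (SD, n = 8) and 9.28 ± 5.44 CPM with mutant Kir2.1 (n = 8). Pik3ap1, an adaptor of phosphoinositide 3-kinase, had 4.22, 0 and 0 CPM without AAV, 5.24 to 34.9 with Kir2.1 and 7.14 to 37.3 in the mutant group (3.85 ± 0.83, adjusted p = 0.0355). Both Blnk and Pik3ap1 entered the test through the injected libraries.

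Of 9 further complement genes tested, C4b passed (adjusted p = 4.74e-05). It had 0 counts in the 3 uninjected libraries of all nuclei, 11.9 to 72.6 CPM with Kir2.1 and 6.74 to 34.5 in the mutant group. Against a floor of 3 counts over the uninjected group it was at least 153-fold higher, and it entered the test through the injected libraries alone. C4b encodes the complement factor cleaved next after C1 and has a near-identical neighbour, C4a, with which its reads may be shared. Of 20 damage-associated genes 0 passed (median 0.28), and of 15 microglial regulators and ligands 0 passed (median 0.69). The regulator Spi1, which encodes PU.1, stood at 2.33 ± 0.93 (adjusted p = 0.384) and Irf8 at 1.83 ± 0.85 (adjusted p = 0.455).

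Markers of border macrophages, of monocytes and neutrophils, and of lymphocytes gave 0 calls in edgeR but mostly positive fold changes. The median was 3.51 for 7 border macrophage markers tested (6 positive, 2 at an unadjusted p under 0.05), 2.35 for 4 of monocytes and neutrophils (4 positive, 2) and 5.02 for 9 of lymphocytes (8 positive, 4). Of these, 3, 1 and 5 markers had 0 counts without AAV, and with those genes at their bound the medians were 2.1004, 2.35 and 2.54. The summed levels of these lists, in the same order, were 3.47 to 14.3, 1.21 to 47.3 and 8.84 to 33.2 CPM without AAV. With Kir2.1 they were 3.07 to 39.7, 20.1 to 181 and 13.1 to 76.3 CPM, and in the mutant group 10.5 to 70.9, 34.1 to 109 and 16.2 to 73.4 CPM. The ranges overlap for each list. Since Ptprc, Ikzf1, Runx1, Dock2 and Dock8 are expressed by those cells too, and their markers were not at 0, the part of such cells in the levels was not tested.

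Of 6 endothelial and mural markers tested 0 passed, 1 had an unadjusted p under 0.05 and all 6 were positive, with a median of 1.91. Their summed level was 2.07 to 4.85 CPM without AAV, 0.907 to 78.5 CPM with Kir2.1 and 1.53 to 30.2 CPM in the mutant group, and its part in the result was not tested. Neuronal and glial markers gave 0 calls. Excitatory neuron markers (8 tested) had a median log2 fold change of 0.17, oligodendrocyte markers (10) one of 0.10 and general inhibitory neuron markers (5) one of -0.55. The gate for non-transduced nuclei removed transduced neurons from the injected libraries only, and its part in the result was not tested.

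The genes whose profile over the 22 libraries of all nuclei was most like the mean log2 level of the members were Adap2, Ctsh, Fli1, Cyth4, Pld4, Cmtm7, Unc93b1, Fgd2, Gm10790 and AC102342.2. Their Pearson correlations ran from 0.904 for Adap2 to 0.843 for AC102342.2. Within the 19 injected libraries alone they were 0.279 for Cmtm7 to 0.692 for Pld4. The points share library depth and the composition of each sort.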

How the data were processed

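Nuclear RNA was sequenced in 79 libraries. The authors deposited 1 table of raw counts, whole numbers per gene with no normalization. Upstream tools named in the submitters' processing notes are HOMER 4.9.1, STAR 2.5.3a and cutadapt 1.18, with the mm10 build; roles and counting settings are not given in the sources used here, and counting over whole gene spans was read from nested genes. Per the labels' protocols, 50 to 100 nuclei per library were reverse transcribed with oligo-dT and amplified by 17 PCR cycles, with no molecular identifiers named, so floors and intervals cover counting error only. The protocols also name harvest after light, whereas all libraries were labelled dark.

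Identifiers were matched to GENCODE vM21 (55154 of 55335, and the other 181 held 0.0264% of counts). Groups came from the labels, and 0 columns were left over. After filterByExpr (minimum count 10, minimum total 15), edgeR 4.0.16 in R 4.3.3 fitted trimmed-mean scaled counts and a two-sided quasi-likelihood F test was made, with Benjamini-Hochberg adjustment over all genes tested and a threshold of 0.05. The fits held 22 libraries of all nuclei, 41 of VIP nuclei, 16 of transduced neurons, 44 for VIP against all nuclei and for the interaction, and 35 for neurons against all nuclei. SE is the log2 fold change divided by the square root of F. Floors are 3 counts over a group. The test was checked on simulated data for injected against no AAV in all nuclei. It recovered 61% of 4-fold and 86% of 16-fold changes, and it called 7 unchanged genes in a set of 20326 genes. Changes of 4-fold or less can therefore be missed.

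All 36 members are reported. Of other lists, called genes are named, and the 10 genes most correlated with the members. Members and lists were chosen with earlier results of these data known. Alternatives were DESeq2 1.42.0, other scalings, no filter, males only, sex as a covariate, the replicate number as a block, libraries left out and, chosen after seeing the data, subtraction of nested reads and injected groups only. Spike-in counts were not analysed here.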

Additional observations from a re-analysis of the deposited data

Results flagged for a closer look

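Examined were 48 groups of values, summed levels of the member groups and levels of members that rose, in groups of 8 to 10 libraries. Uninjected groups were left out. In 4 of the 48, 1 library lay far above the others, where chance gives about 1 in 20. Ly86 had 126 CPM in replicate 2 of all nuclei in the mutant group, where the group median was 41.95 CPM. The summed level of the 36 members was 389.6 CPM in replicate 4 of non-transduced VIP nuclei in the mutant group (median 264.5 CPM), and the identity genes in the same library summed to 254.1 CPM (median 160 CPM). The complement and lysosome genes summed to 105.9 CPM in replicate 8 of transduced VIP nuclei in the mutant group (median 29.92 CPM).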

How the results depend on the processing

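In all nuclei, injected against no AAV, 8 members were higher, 8 with other scalings or sex as a covariate, 7 in males only, 7 with nested reads subtracted and 11 with no filter on low counts. With DESeq2 the count was 15, and 353 of all genes were higher in place of 42 (98 with no filter). DESeq2 also gave 13 members for each of Kir2.1 and the mutant against no AAV, 4 for the injection effect of all minus VIP nuclei and 1 for Kir2.1 against mutant in transduced neurons. With no filter on low counts the injection effect of all minus VIP nuclei gave 1, Ikzf1. Leaving out 1 library at a time gave 6 to 11 members higher for injected, 5 to 11 for Kir2.1 and 6 to 11 for the mutant against no AAV, 0 to 1 for the injection effect of all minus VIP nuclei and 0 for injected VIP nuclei, with 0 lower in each. Replicate numbers did not pair the libraries, since no pair of groups had every same-numbered correlation above 0.1. As a hint from the data, all nuclei and neurons of 1 vector had 6 of 8 (Kir2.1) and 7 of 8 (mutant) pairs above it, and all 3 uninjected libraries of all nuclei correlated best with their own number among VIP nuclei. With the replicate block 30 members were lower in VIP than in all nuclei, 35 in neurons, and 0 were called for the injection effect of all minus VIP nuclei, the counts without it. With the replicate block 8 members were higher in all nuclei, 7 of them shared, with Mertk (adjusted p = 0.00785) in place of Dock8 (adjusted p = 0.15), and Cx3cr1 turned to -0.17 and P2ry13 to -0.30. Leaving out 1 library at a time, values that changed sign ran from -0.40 to 1.86 for Csf1r, -0.16 to 0.34 for Cx3cr1, -0.079 to 0.71 for P2ry12, -0.060 to 1.17 for P2ry13, -0.059 to 2.78 for Tmem119, -1.15 to 0.84 for Fcrls, -0.013 to 2.32 for Selplg and -0.20 to 1.14 for C1qb, and none of these passed. All these sign changes came from leaving out an uninjected library. The cause of these changes was not tested. No library standing apart in its profile was among all nuclei or transduced neurons, so no fit without such libraries was made there. With other scalings the median of all genes in injected against no AAV was 0.06 to 0.07, and 0.34 with no filter.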
